A study of Mus musculus with 24 samples.

Results

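The genes described here encode splicing factors and heterogeneous nuclear ribonucleoproteins (hnRNPs): the SR proteins (Srsf), the hnRNPs (Hnrnp), U2AF (U2af), the SF3A and SF3B subunits (Sf3), the snRNP proteins (Snrp), the PRPF factors (Prpf) and the LSm proteins (Lsm). They were chosen by gene symbol alone, from probe sets that carry a single symbol on the array, and a gene with several is given by the brightest of them, averaged over the 24 arrays. This left 67 genes of 12393: 18 Hnrnp, 10 Lsm, 10 Prpf, 9 Sf3, 9 Srsf, 8 Snrp and 3 U2af genes. They had 151 probe sets between them, and 36 genes had more than 1. A further 16 probe sets that list a matching symbol among several were not used.

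Expression was measured on Affymetrix arrays in C57BL/6 mouse blood progenitors, in 7 groups. Granulocyte monocyte progenitors (GMP), the precursors of neutrophils and monocytes, were transduced with an empty GFP vector (GFP, 3 arrays) or with the fusion oncogene MOZ-TIF2 (MT2, 4), NUP98-HOXA9 (NHA9, 3) or AML1-ETO (AE, 4); cells positive for GFP were taken 36 hours after infection. The untransduced groups were sorted GMP (4 arrays) and sorted LSK cells (3), the population that contains the blood stem cells. Leukemic stem cells with the surface phenotype of GMP from a MOZ-TIF2 leukemia model (L-GMP, 3) formed the last group. The transduced groups share infection and culture with each other but not with the sorted groups. Neither the age of the mice nor the origin of the replicates (animal, culture or infection) is stated in the labels, so a p-value here weighs a difference against array-to-array spread that may be technical in part.

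Splicing removes introns from pre-mRNA. The U1 snRNP marks the start of an intron, U2AF binds its end, and the U2 snRNP, which carries SF3A and SF3B, takes up the branch point, after which the tri-snRNP and the PRPF factors turn the assembly into a catalytic machine. Sm proteins, which are some of those named Snrp, form the ring around most spliceosomal RNAs. The related LSm proteins instead ring U6 RNA, act in messenger RNA decay in the cytoplasm or process histone messages with the U7 snRNP. SR proteins mostly promote the use of nearby splice sites and hnRNPs often oppose them, so their ratio shapes alternative splicing. Genes of this machinery, among them SRSF2, U2AF1 and SF3B1, are recurrently mutated in human myeloid neoplasms.

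The promoters of 4 genes are printed first, because differences between the oncogenes turned on them: Srsf2, Srsf6 and Hnrnpu were higher with MT2 than with NHA9, and Lsm10 was highest with AE. Each is the stretch of 250 bases before the annotated start in RefSeq (GRCm38.p6), written 5′ to 3′ on the gene's strand. Capitals mark matches, on either strand, to CCGGAA (an ETS motif), CCAAT (the CCAAT box), GGGCGG (the GC box), CACGTG (an E-box) or TGTGGT (a RUNX motif); adjoining or overlapping GC box matches run together.
Srsf2, chr11:116853095-116853344, minus strand: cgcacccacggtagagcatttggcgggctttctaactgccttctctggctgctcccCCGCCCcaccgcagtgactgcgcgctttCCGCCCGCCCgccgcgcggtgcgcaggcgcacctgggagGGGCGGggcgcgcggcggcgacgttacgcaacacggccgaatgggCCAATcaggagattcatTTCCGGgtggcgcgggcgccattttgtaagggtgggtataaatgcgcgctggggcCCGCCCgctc
Srsf6, chr2:162931258-162931507, plus strand: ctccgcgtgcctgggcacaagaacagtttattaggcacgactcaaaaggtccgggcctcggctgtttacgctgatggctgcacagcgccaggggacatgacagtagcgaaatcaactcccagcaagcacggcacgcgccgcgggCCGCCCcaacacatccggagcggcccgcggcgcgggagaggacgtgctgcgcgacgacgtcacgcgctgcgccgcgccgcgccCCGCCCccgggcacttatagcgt
Hnrnpu, chr1:178337816-178338065, minus strand: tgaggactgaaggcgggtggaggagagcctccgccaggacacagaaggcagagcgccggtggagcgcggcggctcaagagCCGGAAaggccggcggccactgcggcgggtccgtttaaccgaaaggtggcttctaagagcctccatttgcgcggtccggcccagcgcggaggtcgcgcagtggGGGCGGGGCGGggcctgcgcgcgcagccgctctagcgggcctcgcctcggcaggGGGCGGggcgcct
Lsm10, chr4:126096403-126096652, plus strand: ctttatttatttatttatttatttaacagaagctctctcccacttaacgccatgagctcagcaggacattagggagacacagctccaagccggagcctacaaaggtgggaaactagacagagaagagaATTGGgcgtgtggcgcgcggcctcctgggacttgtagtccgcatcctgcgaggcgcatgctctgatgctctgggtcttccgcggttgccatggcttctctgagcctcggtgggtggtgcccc

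Srsf2 held 1 ETS match, 1 CCAAT match and 5 GC box matches, and Hnrnpu 1 ETS and 3 GC box matches. Srsf6 held only GC box matches, 2 of them, and Lsm10 a single CCAAT match. Of the 67 genes, 58 had a promoter in the table. CCGGAA stood in 25 of these 58 (43.1%), against 19% of 9887 promoters of genes on the array. The GC box stood in 63.8% against 53.1% and CCAAT in 48.3% against 35.9%. CACGTG was in 5.17% against 7.75%, and TGTGGT in 10.3% against 11.2%. These are matches to letters and no test of binding.

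Most of the machinery was expressed in every group. A linear value of 60 (5.91 on the log2 scale), the study's own background level, was passed on all 24 arrays by 61 of the 67 genes (91.0%), against 5224 of 12393 genes on the array (42.2%). Prpf40b passed it on 6 arrays, Lsm2 on 7 and Lsm12 on 2, and Hnrnpl, Lsm14a and Snrpn on none. All values below are the deposited log2 expression estimates, and levels are compared between groups for 1 probe set, not between genes.

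Among genes over 60 on all arrays, the difference between the highest and lowest group mean had a median of 0.68 log2 for the 61 splicing genes and 0.74 for 5224 genes. Their median SD within groups was 0.22 against 0.25. The group means were highest in LSK for 29 of the 67 genes and in L-GMP for 14, and lowest in AE for 29 and in NHA9 for 12. Only the 4 transduced groups and the 61 genes expressed throughout were then counted. MT2 held the highest mean for 40 of these genes and the lowest for 2. AE held the lowest for 33, NHA9 for 14 and GFP for 12. These tallies were made for the splicing genes alone, so no share over all genes stands beside them. The 67 include Hnrnpl, Lsm14a and Snrpn, which passed 60 on no array.

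Within each family, genes differed in how far their group means lay apart. Hnrnpul2 (1.97 log2 between its highest and lowest group mean), Srsf6 (1.94), Prpf3 (1.19), Lsm10 (1.18), Sf3b3 (1.13), U2af1 (0.84) and Snrpa1 (0.71) had the widest range of their families. Srsf6 was highest in LSK, at 10.89 ± 0.26 (SD, n = 3), and lowest with NHA9, at 8.96 ± 0.36 (n = 3). Prpf3, a tri-snRNP protein, was highest in L-GMP, at 9.30 ± 0.46 (n = 3), and lowest with AE, at 8.11 ± 0.49 (n = 4). Sf3b3 was highest in LSK, at 9.69 ± 0.20 (n = 3), with GMP next at 9.60 ± 0.20 (n = 4), a gap within 1 SD, and lowest with AE at 8.55 ± 0.33 (n = 4).

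The gene with the brightest probe set in each family was also followed, a choice that says nothing of levels between genes. Of these 7 genes, 3 ranged less than the median of 0.68. Hnrnpc, an hnRNP of the core particle, ranged over 0.34 log2 between group means, from 12.37 ± 0.31 with AE to 12.71 ± 0.07 in LSK. Snrpg, an Sm ring protein, ranged over 0.41, from 12.08 ± 0.19 in L-GMP to 12.49 ± 0.08 in LSK. Lsm3, of both LSm rings, ranged over 0.59, from 10.42 ± 0.20 with AE to 11.00 ± 0.11 in LSK. The other 4 ranged further. Sf3a2, with 0.77, was 12.17 ± 0.26 in L-GMP and 11.41 ± 0.05 with GFP, and U2af1, with the 0.84 given above, was 10.43 ± 0.37 in L-GMP and 9.59 ± 0.24 with AE. Srsf5, with 0.89, was 12.24 ± 0.17 in LSK and 11.35 to 11.65 in all other groups. Prpf19, with 1.12, was 11.26 ± 0.53 in L-GMP, 11.24 ± 0.12 in GMP and 10.14 ± 0.34 with AE.

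**Figure D1:**
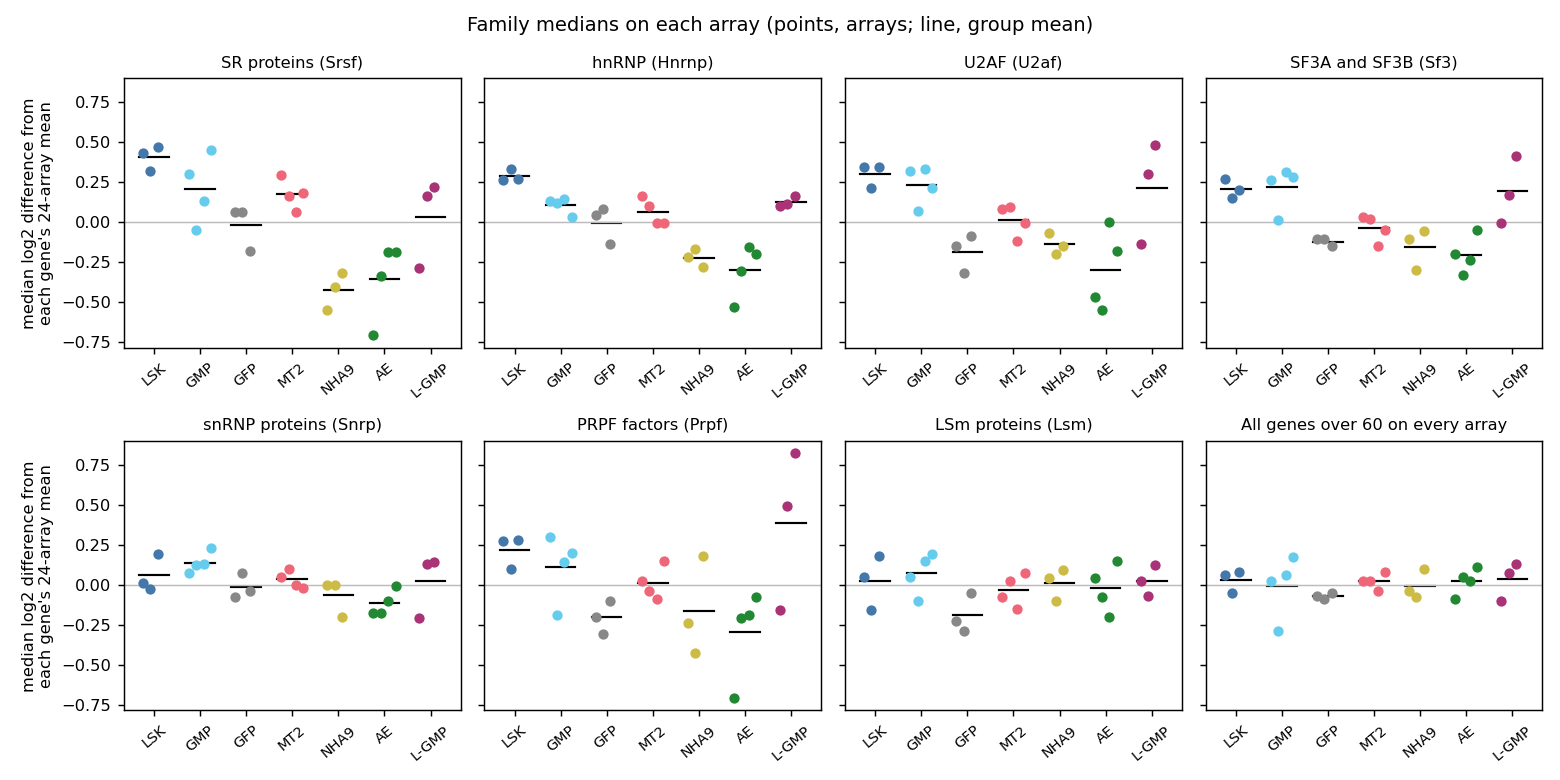
Median, over the genes of a family that pass 60 on every array, of each gene's log2 difference from its own 24-array mean; points are arrays, lines are group means, and the last panel shows all genes that pass 60 on every array. The SR panel shows MT2 arrays at 0.06 to 0.29, above the NHA9 arrays at -0.55 to -0.32 and the AE arrays at -0.71 to -0.19.

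The families did not move as 1 block. The SR family median, taken relative to each gene's 24-array mean, lay between 0.32 and 0.47 on the LSK arrays and between -0.05 and 0.45 on the GMP arrays. It lay between -0.18 and 0.06 with GFP, 0.06 and 0.29 with MT2, -0.55 and -0.32 with NHA9 and -0.71 and -0.19 with AE, so the arrays of MT2 lay above all those of NHA9 and AE. The hnRNP median also put all MT2 arrays above, from -0.01 to 0.16 with MT2, -0.28 to -0.17 with NHA9 and -0.53 to -0.16 with AE. The LSm and snRNP medians overlapped between MT2, NHA9 and AE. The same median over all genes expressed throughout lay between -0.29 and 0.17, with its lowest value on GMP 2.

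Several arrays and cell type markers need to be known before the comparisons. GMP 2 had that lowest median over all genes. L-GMP 1 stood apart from the other L-GMP arrays: its 3′ minus 5′ difference for the Gapdh control probe sets was 4.82, the highest of all arrays, against 3.58 and 3.08, and its summed linear signal of 7 mature neutrophil markers was 47800, against 4570 and 2290. File names carry a tag, here called A, B or none, whose meaning the labels do not state: GFP arrays are all A, MT2 has 3 A and 1 B, AE 1 A and 3 B, NHA9 2 A and 1 none, GMP 3 A and 1 B, LSK 2 A and 1 none, L-GMP 1 A and 2 none. GMP markers such as Mpo and Elane were over 60 in every group (8 of 8), and 7 of 9 LSK markers on the array were over 60 in LSK, where Mecom and Slamf1 were not. In these bulk samples, fewer cells of a type and less RNA per cell cannot be told apart.

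MT2 and AE, compared directly at 36 hours, gave the most calls among the comparisons made here. Of 61 tested, 19 were higher with MT2 (31.1%) and 2 were lower (3.28%) at an adjusted p under 0.05 in limma; of all 7097 genes tested, 12.1% were higher and 17.9% lower. The 19 comprise Srsf1, Srsf2, Srsf3, Srsf9, Srsf10 and Srsf11 (6 of 9 SR genes), Hnrnpa2b1, Hnrnpab, Hnrnpd, Hnrnph2, Hnrnph3, Hnrnpu and Hnrnpul2 (7 of 17 tested hnRNP genes), Prpf19, Prpf31 and Prpf38b (3 of 9 tested), and Sf3b3, Snrpa1 and U2af1. The 2 lower genes were Lsm10 and Lsm1. The median difference over the 61 was 0.30 log2, with 50 above 0, and over all genes tested it was -0.03. All MT2 arrays lay above all AE arrays for 21 of the 61 genes, against 11.3% of all genes, and below them for 1, against 17.8%.

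Srsf2, an SR protein of exon recognition, had 10.34, 10.06, 10.10 and 10.10 on the MT2 arrays and 9.15, 9.41, 9.45 and 9.25 on the AE arrays. The groups did not overlap, and the difference was 0.83 (SE 0.12, limma adjusted p = 0.000213). NHA9 arrays, at 9.18, 9.40 and 9.24, lay in the same span as AE, and GFP arrays, at 9.97, 9.87 and 9.64, lay between. Srsf1, the SR protein also called SF2/ASF, was 10.45, 10.38, 10.28 and 10.27 with MT2 against 9.14, 9.75, 9.85 and 9.77 with AE, again without overlap and with AE 1 far below the rest (difference 0.72, SE 0.18, adjusted p = 0.00751). The other called SR genes differed by 0.48 (Srsf10) to 0.70 (Srsf3), and Srsf10 was the only one of the 6 whose groups overlapped.

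Among the hnRNPs, Hnrnpu, a nuclear scaffold protein that binds RNA and chromatin, had 12.04, 11.92, 11.50 and 11.71 with MT2 and 10.97, 10.78, 10.85 and 11.26 with AE. Every MT2 array was above every AE array (difference 0.83, SE 0.14, adjusted p = 0.000593). Hnrnpd, or AUF1, which binds AU-rich elements of unstable messages, had 10.26, 10.01, 9.96 and 10.34 against 8.74, 9.23, 9.59 and 9.52, a difference of 0.87 (SE 0.17, adjusted p = 0.00198) and no overlap. Hnrnpul2, a relative of Hnrnpu, had the largest difference, 0.91 (SE 0.22, adjusted p = 0.00789), but its groups overlapped: MT2 3, at 8.73, lay below AE 4, at 8.91. Hnrnpa2b1 (0.87, SE 0.26, adjusted p = 0.0207) and Hnrnph3 (0.88, SE 0.31, adjusted p = 0.0465) rested in part on AE 1, which had 10.02 and 6.44; without it their differences were 0.66 (adjusted p = 0.054) and 0.46 (adjusted p = 0.0598).

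Core factors were called singly. U2af1, the U2AF subunit that reads the end of the intron, was 10.62, 10.51, 9.94 and 10.18 with MT2 and 9.55, 9.52, 9.36 and 9.93 with AE (difference 0.72, SE 0.16, adjusted p = 0.00359). The lowest MT2 array thus lay just above the highest AE array. Snrpa1, a U2 snRNP protein, differed by 0.71 (SE 0.16, adjusted p = 0.00393), Prpf31, which holds the tri-snRNP together, by 0.76 (SE 0.20, adjusted p = 0.0104), and Sf3b3, a subunit of SF3B, by 0.59 (SE 0.16, adjusted p = 0.0137). These were 1 of 3 U2af, 1 of 7 tested Snrp, 3 of 9 tested Prpf and 1 of 9 Sf3 genes called.

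The 2 genes lower with MT2 act largely outside the spliceosome. Lsm10, a ring protein of the U7 snRNP that processes histone messages, had 9.25, 9.24, 9.16 and 9.24 with AE, and lay below that on every other array of the study. It was 8.33, 8.40, 8.30 and 8.61 with MT2, 8.66, 8.51 and 8.88 with NHA9, and 8.21, 7.95 and 8.43 with GFP. The MT2 minus AE difference was -0.81 (SE 0.13, adjusted p = 0.000394) and the NHA9 minus AE difference -0.54 (SE 0.14, adjusted p = 0.0282). Lsm1, of the cytoplasmic ring that promotes decapping, was 7.94, 7.30, 7.70 and 7.89 with AE and 6.99, 7.10, 7.00 and 7.31 with MT2, overlapping only at AE 2 and MT2 4 (difference -0.61, SE 0.14, adjusted p = 0.00607).

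**Figure D2:**
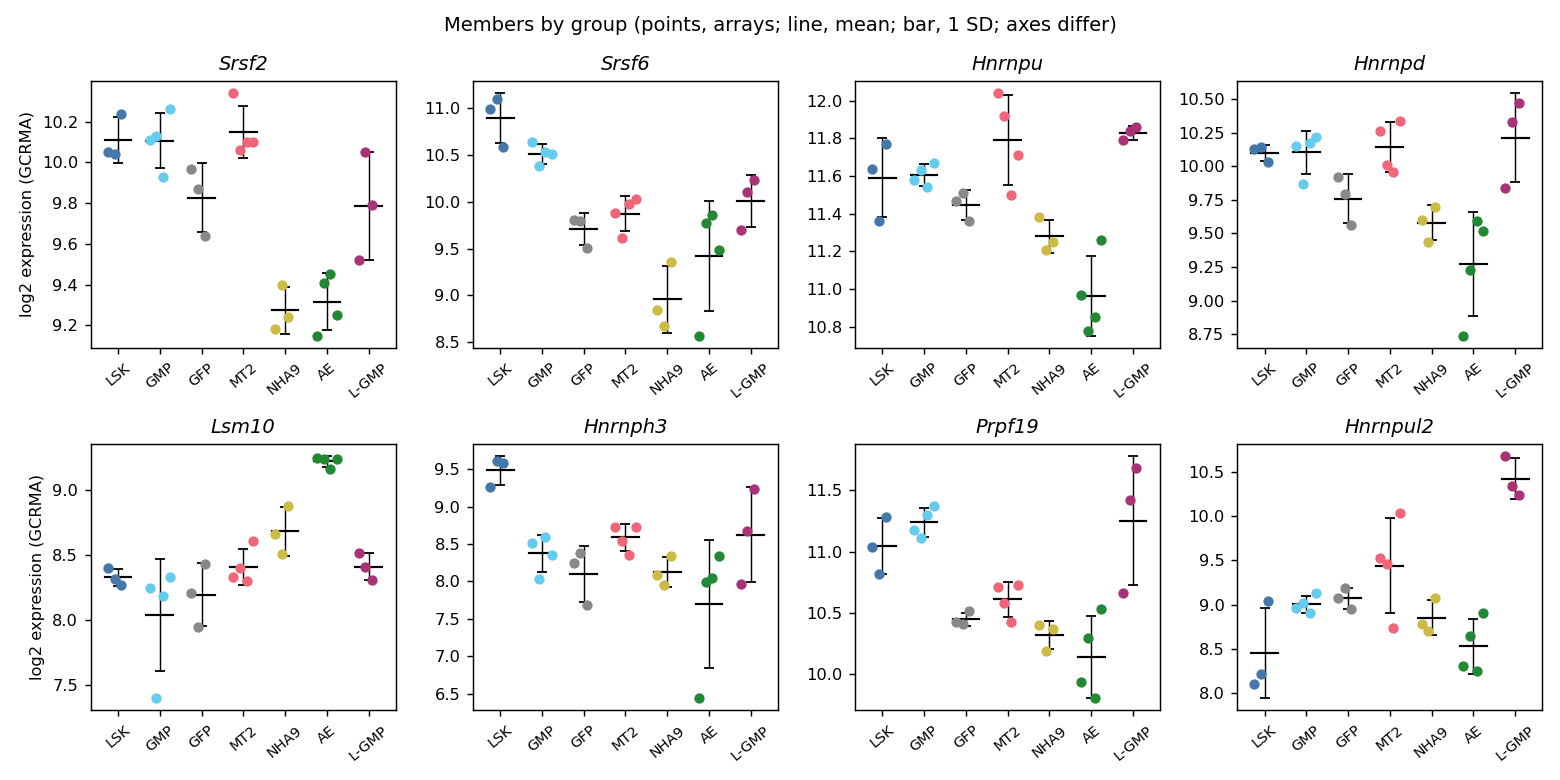
Log2 expression of 8 genes on every array by group (points, arrays; line, mean; bar, 1 SD; vertical axes differ between panels). Srsf2 was low in both NHA9 and AE, Lsm10 was highest in AE at 9.16 to 9.25, and Hnrnpul2 was highest in L-GMP at 10.24 to 10.68.

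Each group was also set beside GFP, in comparisons that share the GFP arrays, for genes already chosen because MT2 lay above AE, which partly fixes these signs. Of the 19 genes higher with MT2, the MT2 mean was above GFP in 18 and the AE mean below GFP in 19, but only Srsf11 passed for MT2 against GFP and 0 passed for AE against GFP. Srsf2, for example, was 0.33 above GFP with MT2 (adjusted p = 0.113) and had a difference of -0.51 with AE (adjusted p = 0.0553). Of the 21 called genes, 12 had other tested probe sets, 33 in all: 32 differed in the same direction, 20 of these past the threshold, and none passed in the opposite direction.

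These counts depended on the arrays. Without MT2 1 there were 13 calls, beside 23% of all genes, and without AE 1 there were 14 (12 higher, 2 lower), beside 30%. Within tag A, where AE 1 was the only AE array, 31 genes were called (28 higher), beside 34.5% of all genes. Within tag B, with MT2 4 against AE 2 to 4, only Hnrnpul2 was, beside 6.66% of all genes, and 45 of 61 genes were above 0 with a median of 0.24. A fit to all arrays with a term for the tag gave 24, beside 30.9%. Summed mature neutrophil markers, of which 6 of 7 on the array were over 60 in both groups (Mmp9 was not), ran from 6310 to 18300 with MT2 and 22200 to 27800 with AE. Summed GMP markers ran from 44900 to 48200 and from 27800 to 37800, and summed macrophage markers (4 of 7 over 60) from 5850 to 8400 and 9950 to 11800; their part in the result was not tested.

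Of the 4 genes that differed between MT2 and NHA9, 3 encode SR proteins. Of 61 genes tested, Srsf6, Srsf2, Srsf11 and Hnrnpu were higher with MT2 (6.56%) and 0 were lower; of all genes tested, 3.38% were higher and 4.65% lower. Srsf6, a regulator of alternative exons, was 9.88, 9.61, 9.98 and 10.03 with MT2 and 8.84, 8.67 and 9.36 with NHA9 (difference 0.92, SE 0.26, limma adjusted p = 0.0421). The groups did not overlap, and AE arrays spread across both, from 8.57 to 9.86. The other tested probe sets of Srsf6 gave 0.23 (adjusted p = 0.455) and 0.29 (adjusted p = 0.356), and the mean of its probe sets gave 0.48 (adjusted p = 0.0551), so the call rests on 1 probe set. Srsf2 differed by 0.88 (SE 0.13, adjusted p = 0.00191), Srsf11 by 0.61 (SE 0.13, adjusted p = 0.0114) and Hnrnpu by 0.51 (SE 0.15, adjusted p = 0.0487).

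All 9 SR genes were above 0 in this comparison, with a median of 0.61 log2. At an unadjusted p under 0.05 in limma were 7 of them, against 1717 of all 6986 genes tested. The median was 0.35 for 17 hnRNP genes, -0.03 for 7 LSm genes and 0.01 for all 6986 genes tested. The groups did not overlap, with MT2 above, for 21 of the 61 genes, against 11.3% of all genes tested. Srsf2 alone was called without NHA9 1, beside 2.61% of all genes. There were 2 calls without MT2 1 (3.33% of all genes) or MT2 4 (4.86%), and 11 within tag A (18.9%). NHA9 and AE, in contrast, differed in 1 of 61 genes, Lsm10, while 3% of all genes were higher and 5.1% lower. U2af1, with 0.49, was among the largest values and was not called. Lsm10 was not called without NHA9 1, NHA9 2, AE 2 or AE 3, and without AE 2 Lsm1 was called in its place. The count was 2 without AE 1, beside 13% of all genes, and 3 without AE 4, beside 8.08%. Within tag A, where AE 1 was the only AE array, the median difference over the 61 genes was 0.19, against 0.07 with all arrays. Between MT2 and NHA9, summed mature neutrophil markers (6 of 7 over 60 in both) ran from 6310 to 18300 and from 22100 to 28300. Summed GMP markers (8 of 8) ran from 44900 to 48200 and from 33900 to 43500, and macrophage markers (4 of 7) from 5850 to 8400 and from 9270 to 10200. Between NHA9 and AE, B cell markers, 1 of 6 over 60 in both, ran from 243 to 274 and from 343 to 461. Their part in these results was not tested.

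**Figure D3:**
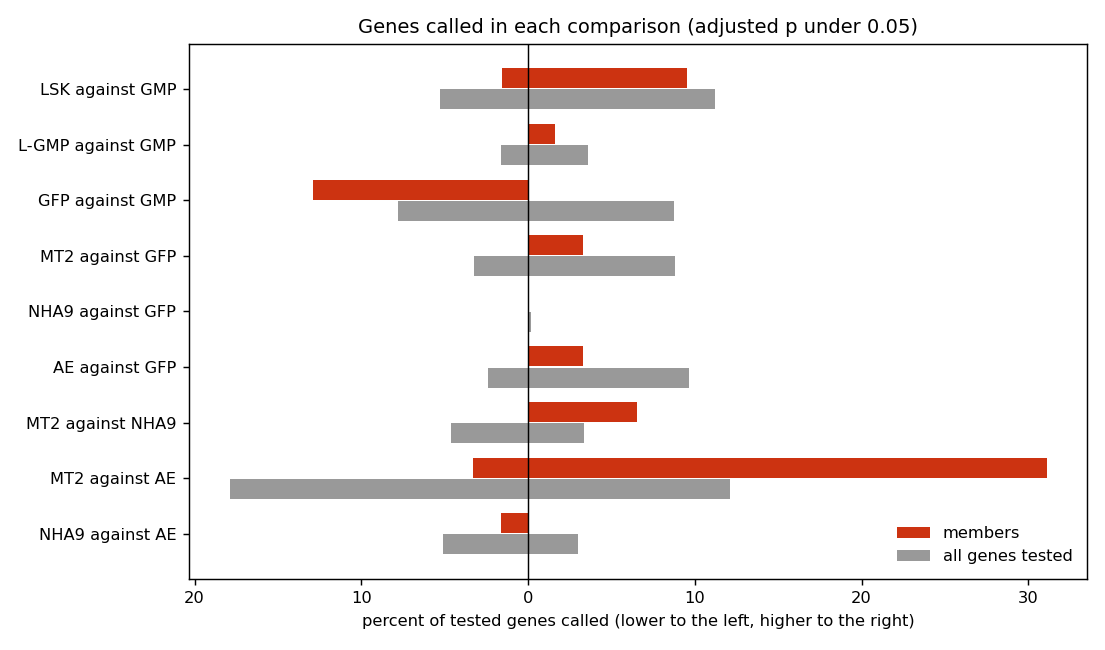
Percent of tested genes called at an adjusted p under 0.05 in each comparison, lower to the left and higher to the right; red, the splicing genes, grey, all genes tested. The splicing genes stand at 31.1% higher in MT2 against AE, where all genes stand at 12.1%, and at 12.9% lower in GFP against GMP, where all genes stand at 7.83%.

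Against the empty vector, few splicing genes passed with any oncogene. With MT2, 2 of 61 were higher (3.28%) and 0 lower, while 8.8% of all genes were higher and 3.22% lower. Hnrnpa1, which represses splice sites, was 10.97, 11.00, 11.13 and 10.87 with MT2 and 10.61, 10.18 and 10.63 with GFP (difference 0.51, SE 0.14, limma adjusted p = 0.0379). Srsf11 was 10.17, 10.05, 10.08 and 10.48 against 9.68, 9.80 and 9.62 (difference 0.49, SE 0.13, adjusted p = 0.0377). Neither overlapped. The other tested probe set of Hnrnpa1 gave 0.32 (adjusted p = 0.138) and that of Srsf11 0.75 (adjusted p = 0.0234). No gene was called without MT2 1, MT2 2, GFP 1 or GFP 2, beside 1.64% to 8.15% of all genes. Without MT2 4, which leaves the same arrays as tag A alone, Hnrnpa1 alone was called, beside 8.5%. There was 1 call without GFP 3 (6.78%) and 3 without MT2 3 (14.7%). All 9 tested Prpf genes were above 0, with a median of 0.31 against 0.06 over all genes, and none of them passed. Neutrophil markers summed to 26100 to 31200 with GFP, above the MT2 values given, and LSK markers (5 of 9 over 60 in both) to 1040 to 1260 with MT2 and 825 to 1030 with GFP. T and NK cell markers, 0 of 6 over 60 with MT2 and 1 with GFP, summed to 149 to 185 and 191 to 213. The part of these markers was not tested.

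With NHA9 no splicing gene was called of 61 in limma. Of all genes, 0.173% were higher and 0.0145% lower. At an unadjusted p under 0.05 in limma were 9 of the 61, against 768 of all 6919 genes tested. The methods' t-test after Benjamini-Hochberg adjustment called 0, with 4 at an unadjusted p under 0.05. The SR genes had a median difference of -0.44, with 8 of 9 below 0 and 5 at an unadjusted p under 0.05. Srsf6 gave the largest value, -0.75 (SE 0.20, adjusted p = 0.273), with the NHA9 arrays given above all below the GFP arrays at 9.81, 9.80 and 9.51. Prpf4b, a kinase that acts on the spliceosome, had 0.62 (SE 0.17, adjusted p = 0.288), and Srsf1 had -0.55. Without NHA9 3, which leaves the same arrays as tag A alone, Srsf6 and Prpf38a were called lower, beside 1.58% of all genes. The GMP markers summed to 33900 to 43500 with NHA9 against 44000 to 48500 with GFP, and the macrophage markers to 9270 to 10200 against 6830 to 7700; their part was not tested.

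With AE, Lsm10 (1.03, SE 0.15, limma adjusted p = 0.00357) and Lsm1 (0.79, SE 0.18, adjusted p = 0.0241) were higher than with GFP, 2 of 61 genes, and 0 were lower; of all genes, 9.68% were higher and 2.43% lower. Lsm1 lay at 6.86, 6.81 and 7.08 with GFP, under all AE arrays. All 9 SR genes were below 0, with a median of -0.28, and 14 of 17 hnRNP genes were, with a median of -0.29, while the median of all genes was 0.10. Hnrnpa2b1 had the largest negative value, -0.86 (SE 0.31, adjusted p = 0.105).

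Calls of lower genes with AE appeared under other settings. Under quantile normalization, where the median over all genes went from 0.10 to -0.01, the fit kept Lsm10 and called Hnrnpul2, Srsf1 and Srsf2 lower, but not Lsm1. Without AE 1 there were 3 higher and 3 lower calls, beside 28.5% of all genes called, and without AE 4 there were 4 calls, beside 9.1%. Without AE 3, GFP 1 or GFP 2 only Lsm10 was left, beside 3.27% to 7.3%. Within tag A, where AE 1 stood alone for AE, 3 were higher and 12 lower, beside 17.5% of all genes called. Summed GMP markers (8 of 8 over 60 in both) ran from 27800 to 37800 with AE and 44000 to 48500 with GFP, and macrophage markers (4 of 7) from 9950 to 11800 and 6830 to 7700. LSK markers, 6 of 9 over 60 with AE and 5 with GFP, ran from 1080 to 1680 and 825 to 1030, and B cell markers (1 of 6) from 343 to 461 and 211 to 275. Their part in the result was not tested.

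All 3 oncogenes taken as 1 class gave 0 called genes of 63 against GFP, where 0% of all genes were called. Of the 63, 4 had an unadjusted p under 0.05 in limma, against 832 of all 7316 genes tested. The methods' t-test after Benjamini-Hochberg adjustment also called 0, with 5 at an unadjusted p under 0.05. Lsm10 had the largest difference, 0.59 (SE 0.22, limma adjusted p = 0.412), followed by Prpf4b at 0.44 (SE 0.15, adjusted p = 0.379) and Hnrnpa2b1 at -0.43. Lsm10 passed when the 3 group means were averaged.

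**Figure D4:**
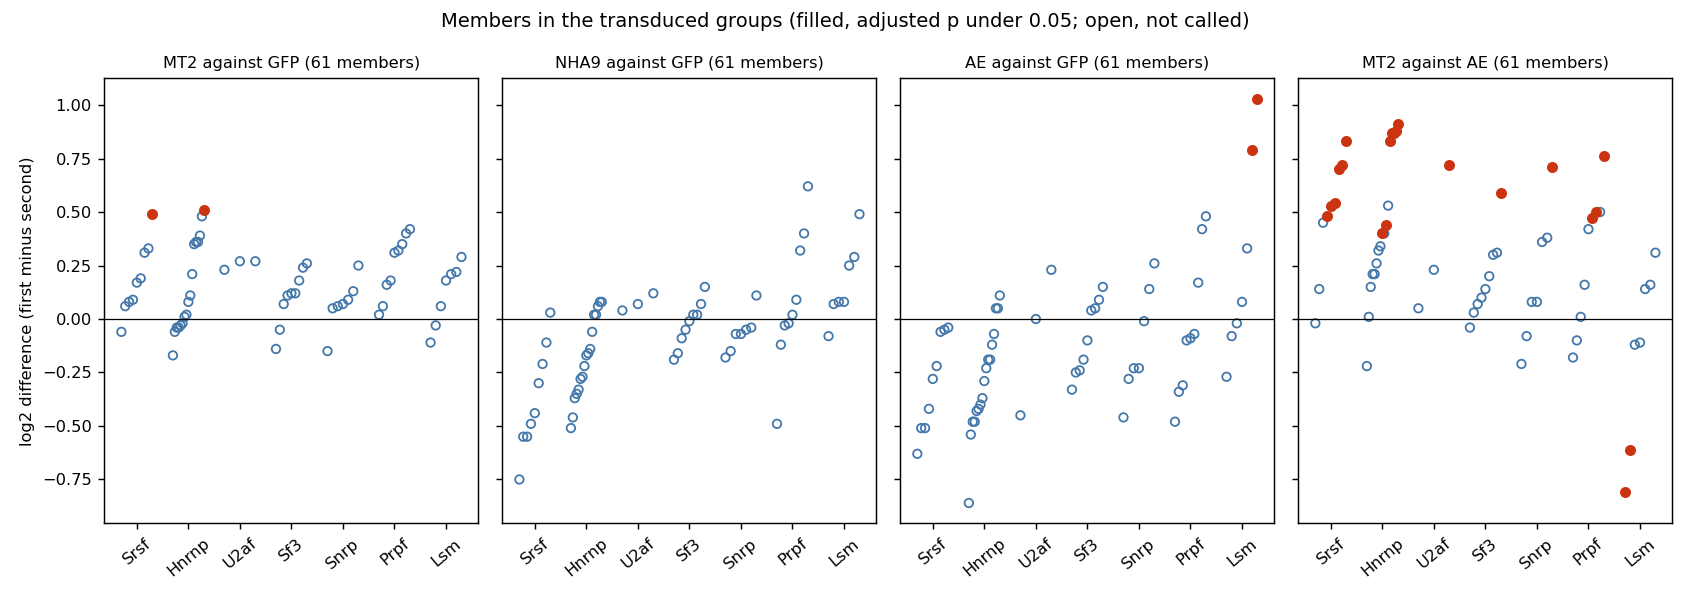
Log2 difference of each tested splicing gene, by family, in 4 comparisons of transduced GMP (filled, adjusted p under 0.05; open, not called); the first 3 panels share the GFP arrays. The SR genes lie at or below 0.03 in the NHA9 and AE panels, and the 2 filled points in the AE panel are Lsm10 at 1.03 and Lsm1 at 0.79.

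Cells carrying only the vector differed from fresh GMP in 1 direction. Of 62 genes tested, 8 were lower in GFP (12.9%) and 0 higher; of all genes, 7.83% were lower and 8.77% higher. Srsf6 was 9.81, 9.80 and 9.51 in GFP and 10.64, 10.38, 10.53 and 10.51 in GMP, without overlap (difference -0.81, SE 0.15, limma adjusted p = 0.00633). Its other tested probe sets gave -0.25 (adjusted p = 0.498) and -0.50 (adjusted p = 0.18). The mean of its probe sets was not called, so the call rests on 1 probe set. Prpf19, a ubiquitin ligase needed for spliceosome activation, was 10.42, 10.41 and 10.51 against 11.18, 11.11, 11.30 and 11.37 (difference -0.79, SE 0.14, adjusted p = 0.00496). Its probe set is of a type that can share probes with other transcripts. Among others, those used for Srsf1, Srsf2, Hnrnpab, Hnrnpll, Hnrnpr, Sf3a2 and Snrpg are of such types too. The other tested probe sets of Prpf19 also passed, at -0.81 (adjusted p = 0.00527) and -0.83 (adjusted p = 0.0183).

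The other 6 came from 4 families and none overlapped between the groups. They were Hnrnpdl (-0.71), Sf3b3 (-0.71), Lsm7 (-0.60), a ring protein shared by the U6 and decay complexes, Hnrnpa1 (-0.58), Sf3a2 (-0.58) of SF3A, and U2af2 (-0.56), the U2AF subunit that binds the pyrimidine tract. The other tested probe set of Sf3a2 gave 0.00 (adjusted p = 0.999). Of the 8 called genes, 5 had other tested probe sets, 11 in all, of which 4 passed in the same direction and 0 in the opposite one. The 62 genes had a median of -0.26 with 49 below 0, and all 7103 genes a median of -0.05. GFP lay wholly below GMP for 19 of the 62, against 15.4% of all genes. Counts were 21 without GMP 2, where 37.2% of all genes were called, and 3 without GMP 1, GMP 3, GFP 1 or GFP 3, beside 8.5% to 10.5%. Without GFP 2 there were 2 (Prpf19 and Srsf6), beside 7.72%, and no gene was called higher in any of these. Within tag A, 8 were called, beside 16.4% of all genes. Summed macrophage markers, 4 of 7 over 60 in both groups, ran from 6830 to 7700 in GFP and 2930 to 4460 in GMP. Summed LSK markers, 5 of 9 over 60 in both, ran from 825 to 1030 in GFP and 1820 to 3400 in GMP. Mast cell and basophil markers, 2 of 6 over 60 in GFP and 3 in GMP, summed to 299 to 341 and 747 to 1530, and erythroid markers, 1 and 4 of 5, to 189 to 216 and 313 to 541. The part of these markers in the result was not tested.

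Normal LSK cells had more of 6 splicing genes than GMP and less of 1, of 63 tested (9.52% and 1.59%); of all genes, 11.2% were higher and 5.27% lower. Hnrnph3, an hnRNP of the H family, which binds G runs, was 9.26, 9.61 and 9.58 in LSK and 8.51, 8.03, 8.60 and 8.36 in GMP (difference 1.11, SE 0.18, limma adjusted p = 0.00428). Srsf5 was 12.07, 12.24 and 12.41 against 11.45, 11.46, 11.48 and 11.59 (difference 0.75, SE 0.15, adjusted p = 0.00948). Hnrnpll, known for its control of Cd45 splicing in lymphocytes, went the other way, at 8.88, 8.78 and 9.00 against 9.65, 9.26, 9.44 and 9.64 (difference -0.61, SE 0.16, adjusted p = 0.0304). No array of LSK overlapped GMP in these 3 genes.

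Prpf4b (0.86), Lsm14b (0.80), Hnrnph1 (0.62) and Prpf40b (0.50) were the other genes higher in LSK. Prpf40b passed 60 on 3 of 3 LSK arrays and 0 of 4 GMP arrays, so it entered the test only through the group where it was high. Its place among the 6 higher genes is thus no separate support. It lay under 60 on average in GMP, so that LSK was at least 1.17-fold above that level. Of the 7 called genes, 3 had other tested probe sets, 6 in all, of which 1, for Prpf4b, passed in the same direction and 0 in the opposite one. That of Hnrnpll gave -0.25 (limma adjusted p = 0.471) and that of Hnrnph1 0.15 (adjusted p = 0.657). With the mean of a gene's probe sets, Hnrnpll, Hnrnph1 and Prpf4b were not called. That setting gave 5 higher and 0 lower genes, Hnrnpa2b1 among the higher, beside 17% of all genes called. Hnrnph3 and Srsf5 were called whichever array was left out, but not by the methods' t-test, which called Hnrnph1 and Prpf40b. The count fell to 2 without LSK 1, LSK 2 or GMP 1, beside 7.48% to 9.54% of all genes. It was 3 without GMP 3 (12.6%), 4 without LSK 3 (10.4%) and 10 without GMP 2 (26.6%). Within tag A it was 3 (11.1%), Hnrnph3 and Srsf5 higher and Hnrnpul2 lower. The SF3, snRNP and U2AF genes gave no call among 19 tested. The LSK markers, 7 of 9 over 60 in LSK and 5 of 9 in GMP, summed to 7520 to 9490 and 1820 to 3400. GMP markers (8 of 8 in both) summed to 13100 to 21200 and 46800 to 52200, and erythroid markers (4 of 5 in both) to 1110 to 3160 and 313 to 541. Macrophage markers, 3 and 4 of 7 over 60, and mast cell and basophil markers, 2 and 3 of 6, were lower on every LSK array than on every GMP array. The part of these markers was not tested.

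Leukemic GMP differed from normal GMP in 1 splicing gene of 63 tested (1.59%), where 3.62% of all genes were higher and 1.61% lower. Hnrnpul2 was 10.68, 10.34 and 10.24 in L-GMP and 8.96, 9.02, 8.91 and 9.13 in GMP, a 2.66-fold difference without overlap (1.41 log2, SE 0.19, limma adjusted p = 0.00407). All other arrays of the study lay below the L-GMP arrays, the nearest being MT2 4 at 10.03. Without L-GMP 1 the difference was 1.28 (adjusted p = 0.00341). The other tested probe set of Hnrnpul2 gave 0.80 (SE 0.24, adjusted p = 0.107) and was not called.

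The other values in L-GMP split with L-GMP 1. Srsf9 was 9.53 on L-GMP 1 but 11.04 and 10.66 on the others, against 9.28 to 9.67 in GMP (difference 0.95, SE 0.34, adjusted p = 0.175). Hnrnpr was 10.69 on L-GMP 1 and 9.54 and 9.32 on the others, against 10.33 to 11.00 (difference -0.83, SE 0.34, adjusted p = 0.238). Without L-GMP 1, both passed, Srsf9 at 1.39 (adjusted p = 0.00513) and Hnrnpr at -1.25 (adjusted p = 0.0117). Prpf38b did too, for 4 calls in all, beside 10.7% of all genes. The 2 arrays left have the tag none, which no GMP array has, so group and tag cannot be told apart there. The neutrophil markers given above also set L-GMP 1 apart, 5 of 7 were over 60 in the L-GMP means, and their part was not tested. Macrophage markers (5 of 7 over 60 in L-GMP, 4 in GMP) summed to 9370 to 13700 in L-GMP against 2930 to 4460, and mast cell and basophil markers (2 and 3 of 6) to 206 to 613 against 747 to 1530.

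The change from GMP to L-GMP was also set against the change from GFP to MT2 at 36 hours. No splicing gene of 63 differed at the threshold in limma, where 6.08% of all genes were called. At an unadjusted p under 0.05 were 10 of the 63, against 1535 of all 7298 genes tested. Hnrnpul2 had the largest difference, 1.05 (SE 0.33, adjusted p = 0.0803), and Hnrnpr had -0.79 (SE 0.37, adjusted p = 0.248). Of the SR genes, 8 of 9 were below 0, with a median of -0.53. Srsf2 (-0.64) and Srsf6 (-0.67), both with an adjusted p = 0.109, were among them. Lsm2, which passed 60 on only 7 arrays, had -0.74 and was not called. Without L-GMP 1, where L-GMP and its tag cannot be told apart, Srsf9 and Hnrnpr passed, beside 11.1% of all genes. Without MT2 4, Hnrnpul2 did, beside 4.82%. Within tag A, where L-GMP 1 was the only L-GMP array, the median over the 63 genes was -0.44, against -0.20 with all arrays.

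Other genes of RNA processing, from lists chosen apart from these families, gave the following counts. With MT2 against AE, where 12.1% of all genes were higher and 17.9% lower, 4 of 46 further spliceosome genes were higher and 1 lower, 8 of 41 other splicing regulators were higher and 1 lower, 5 of 17 genes of snRNP assembly and arginine methylation were higher, 4 of 12 genes of the exon junction complex and decay were higher, and 1 of 10 SR protein kinases and carriers was higher. Mbnl1, a regulator of developmental exons, differed by 1.22 (SE 0.17, adjusted p = 0.000182), Syncrip, an hnRNP-like protein, by 1.13 (SE 0.19, adjusted p = 0.000629), and Tardbp, or TDP-43, by 1.06 (SE 0.20, adjusted p = 0.00129). Wdr77 and Prmt7, which serve the arginine methylation of Sm proteins, differed by 0.90 (SE 0.19) and 0.84 (SE 0.18).

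Mbnl1 and Syncrip were also higher with MT2 than with GFP, by 0.93 (SE 0.18, adjusted p = 0.0146) and 0.96 (SE 0.19, adjusted p = 0.0153). In that comparison 4 of 17 assembly genes, 4 of 41 regulators and 1 of 46 spliceosome genes were higher and none lower, beside the 8.8% of all genes that were higher. In GFP against GMP, 4 of the 17 assembly genes were lower, among them Gemin8 (-1.25), Prmt7 (-1.04) and Prmt1 (-0.89), as were 3 of 42 regulators and 1 of 46 spliceosome genes, beside 7.83% of all genes. Between LSK and GMP, Clk1, a kinase of SR proteins, was higher in LSK by 0.98 (SE 0.15, adjusted p = 0.003), and Smn1, the core of the snRNP assembly complex, was lower, at -0.97 (SE 0.21, adjusted p = 0.0141). Mbnl1 was the 1 gene of these lists called in L-GMP, 0.95 above GMP (SE 0.17, adjusted p = 0.0164).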

How the data were processed

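The table holds log2 expression estimates that the authors deposited, made with GCRMA 2.4.1 from MAS5 cell files, per the submitters' processing notes; no further normalization was applied. GCRMA corrects background by probe sequence and scales arrays to each other, so a shift common to all genes is removed. Per the series' design text, outlier arrays were removed before deposit.

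limma 3.58.1 in R 4.3.3 (lmFit, eBayes) was run on all probe sets over 60 on at least 2 arrays of a compared group, with Benjamini-Hochberg adjustment over all of them, two-sided, at 0.05. Comparisons with GFP or GMP used the arrays of their classes, and oncogenes were compared within a fit to the transduced arrays. Genes were counted on 1 probe set each. Precision is limited by the number of arrays.

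The genes and lists were chosen with earlier results of these data known. Named genes are the largest called changes (up to 6 each way) or, with fewer than 3 calls, the 3 largest values, plus each family's highest and most variable gene; other called genes complete a count, and all others were named after their values were seen. The script was tested on simulated data. Alternatives were other scaling, filters, tags, fits and probe set rules and leaving out each array.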

Additional observations from a re-analysis of the deposited data

Results flagged for a closer look

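In groups of 4 arrays, 6 values of named genes lay far from the other 3, by a test of gap over range that flags about 1 in 20 groups by chance; 96 groups were tested. Srsf2 was 10.34 on MT2 1, against 10.06 to 10.10 on the other MT2 arrays. Srsf1 was 9.14 on AE 1, against 9.75 to 9.85. Lsm10 was 9.16 on AE 3, against 9.24 to 9.25, and 7.40 on GMP 2, against 8.19 to 8.33. Lsm14b was 6.90 on GMP 2, against 7.54 to 7.66. Hnrnpll was 9.85 on MT2 4, against 9.45 to 9.50.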

How the results depend on the processing

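Each named gene kept its direction under every alternative run; 664 of their values under alternatives stayed on their side of the threshold, 138 lost the call and 19 gained it. Counts of called genes moved more, and the percent of all genes called stands in parentheses beside each. With quantile normalization the counts were 1 in MT2 against GFP (11.1%) and 4 in AE against GFP (11.1%). They were 20 in GFP against GMP (27.2%) and 2 for the leukemic change minus the MT2 change (9.72%). With the tag as a factor they were 0 in MT2 against GFP (3.02%) and 9 in AE against GFP (12.2%). That fit gave 11 in LSK against GMP (27.2%), 8 in L-GMP against GMP (18.1%) and 15 in GFP against GMP (25.2%). It gave 8 in MT2 against NHA9 (9.45%), 0 in NHA9 against AE (3.07%) and 3 for the difference of changes (11.5%). Within tag A they were 1 in MT2 against GFP (8.5%) and 2 in NHA9 against GFP (1.58%). Tag A also gave 3 in LSK against GMP (11.1%) and 11 in MT2 against NHA9 (18.9%). L-GMP 1 was the only L-GMP array there and AE 1 the only AE array. Tag B, a choice made after seeing the data, held MT2 4 as its only MT2 array. With 1 mean per group over all 24 arrays the counts were 0 in MT2 against GFP (1.95%) and 6 in AE against GFP (12.6%). They were 6 in L-GMP against GMP (18.7%), 0 in NHA9 against AE (5.07%) and 1 for the difference of changes (9.08%). The mean of a gene's probe sets gave 4 in MT2 against GFP (about 14%) and 4 in AE against GFP (14.5%). It gave 7 in MT2 against NHA9 (10.1%) and 2 in NHA9 against AE (9.72%). No filter on dim probe sets gave 2 in MT2 against NHA9 (3.59%), and eBayes with trend and robust gave 1 for the difference of changes (6.43%). Averaging the 3 oncogene means, chosen after seeing the data, gave 1 for all oncogenes against GFP (2.12%). The methods' t-test after Benjamini-Hochberg adjustment called 0 genes against GFP in MT2 (0%), AE (0%) and all oncogenes (1.01%). It called 2 in LSK against GMP (2.54%), Hnrnph1 and Prpf40b, 0 in L-GMP against GMP (0.113%) and 4 in GFP against GMP (5.8%). At an unadjusted p under 0.05 it gave 6, 13, 5, 12, 6 and 19 in the same order. In NHA9 against GFP it called 0 after adjustment (0%) and 4 at an unadjusted p under 0.05.

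With the replicate number as a block the counts were 1 in MT2 against GFP (8.84% of all genes) and 1 in AE against GFP (3.81%). They were 5 in GFP against GMP (15.1%) and 2 in MT2 against NHA9 (5.61%). NHA9 against AE gave 0 (7.66%) and the difference of changes 1 (4.25%). Samples of the same number correlated between -0.29 and 0.28 in their deviations. In no comparison did every sample correlate best with its own number. In NHA9 against GFP and in GFP against GMP, 2 of 3 samples of each group did. With 3 pairs a comparison, this cannot show whether samples of the same number share an origin.

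Leaving out 1 array gave 0 to 0 calls for all oncogenes against GFP, 0 to 3 in MT2 against GFP, 0 to 2 in NHA9 against GFP, 1 to 6 in AE against GFP, 2 to 10 in LSK against GMP, 1 to 4 in L-GMP against GMP, 2 to 21 in GFP against GMP, 1 to 6 in MT2 against NHA9, 13 to 24 in MT2 against AE, 0 to 3 in NHA9 against AE and 0 to 2 for the difference of changes. The share of all genes called moved too, from 1.64% to 14.7% in MT2 against GFP and from 7.72% to 37.2% in GFP against GMP. It ran from 0.0145% to 1.58% in NHA9 against GFP, 3.27% to 28.5% in AE against GFP and 7.48% to 26.6% in LSK against GMP. It was 2.08% to 10.7% in L-GMP against GMP, 2.61% to 9.67% in MT2 against NHA9 and 23% to 30.6% in MT2 against AE. For NHA9 against AE it was 4.27% to 13%, and for the difference of changes 3.64% to 11.1%. All oncogenes against GFP stayed at 0%. The cause of these shifts was not tested. With 3 or 4 arrays a group, standard errors of the splicing genes limit what can be called.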
